A study of Mus musculus with 31 samples.

Results

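The effect of PF-04287881, a candidate antibiotic, was read in the liver of the inbred mouse strain MA/MyJ from 8 of the 31 arrays of the series. They were chosen by strain and treatment alone: 4 came from MA/MyJ animals given PF-04287881 and 4 from MA/MyJ animals given vehicle. All animals were female and 8 to 10 weeks old when dosing began. Treated animals received 600 mg/kg by gavage once a day for 7 days, vehicle animals received sterile water in the same way, and the left liver lobe was frozen 24 hours after the last dose. NZW/LacJ and SM/J animals (4 treated and 4 vehicle each) and WSB/EiJ animals (3 treated and 4 vehicle) were dosed alike and give the comparison. The series codes MA/MyJ and NZW/LacJ as strains whose Kupffer cells became vacuolated under the drug, and MA/MyJ as free of single cell necrosis. That coding is carried by the vehicle animals of a strain too, so it describes strains and gives no score for a single liver.

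Kupffer cells are the macrophages that live in the liver sinusoids, where they take up particles, dead cells and bacteria from portal blood. What macrophages take up is digested in lysosomes, whose acid hydrolases work at the low pH kept by a vacuolar proton pump. In drug-induced phospholipidosis, phospholipids build up inside lysosomes and the cells become vacuolated.

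Values were log2 expression levels per gene, so a difference of 1 is a 2-fold change, and differences are PF-04287881 minus vehicle ± 1 standard error of the model. One model was fitted to 12887 genes with limma, and the threshold was an adjusted p under 0.05 (Benjamini-Hochberg over all of them). On 200 probe sets private to each strain, the 8 MA/MyJ arrays lay between 0.922 and 1.05 on a scale where MA/MyJ averages 1, and arrays of other labels lay between -0.0657 and 0.0866. One array, labelled as PF-04287881 animal 3 of WSB/EiJ, scored 0.0192 for WSB/EiJ and 0.978 for NZW/LacJ. It was left out, so 30 arrays were fitted and WSB/EiJ had 2 treated arrays. Vehicle animal 4 of WSB/EiJ scored 0.633 for its own strain, and the remaining 5 arrays of that strain scored 0.942 to 1.04.

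PF-04287881 changed 941 genes in MA/MyJ liver, which is 7.3% of those tested. Of these, 672 were higher (5.21%) and 269 lower (2.09%). Centring each array on its own median turned this split from 71.4% to 44.8% higher, with 467 genes higher and 575 lower, and moved the median difference of all genes from 0.006 to -0.056. Large changes ran mostly upward: 105 genes rose by more than 1 in log2 units and 10 fell by more than that. Treated and vehicle values did not overlap in 16.8% of all genes tested (10.7% higher, 6.09% lower) and in 833 of the 941 that passed. Without treated animal 3 the counts were 352 higher and 154 lower, the lowest count of higher genes when single arrays were left out. Without treated animal 2 the counts were 447 and 139, without vehicle animal 1 they were 428 and 170, and without vehicle animal 3 they were 396 and 186. The lower count also shrank by over 1.5 times without treated animal 4 (177) and without vehicle animal 2 (169), and the cause was not tested.

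The largest rises were those of genes that mark lipid-laden macrophages. Gpnmb, a glycoprotein of macrophage lysosomes, stood at 8.52, 10.05, 10.66 and 8.51 in treated animals, against 5.11, 5.74, 5.50 and 5.63 in vehicle animals. The groups lay far apart, with a difference of 3.94 ± 0.48 (limma adjusted p = 1.19e-05, n = 4 each). The mean of its 2 probe sets gave a smaller difference of 2.12. Mmp12, the macrophage elastase, stood at 7.86, 8.16, 9.04 and 7.21 in treated animals, against 4.66, 4.80, 4.80 and 4.65 in vehicle animals. Lgals3, galectin-3, a lectin that binds damaged endosomes and lysosomes, stood at 10.18, 10.75, 11.37 and 10.03 in treated animals, against 7.27, 7.74, 7.27 and 7.02 in vehicle animals. Mmp12 rose by 3.34 ± 0.45 and Lgals3 by 3.26 ± 0.40 (adjusted p = 4.22e-05 and 1.29e-05). In all 3 genes treated animal 3 was the highest of the 8. All vehicle values of Gpnmb and Mmp12 lay under 6.49, the level a gene had to exceed in at least 3 arrays to be tested, so the size of these differences rests on dim vehicle signals.

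Of 14 lipid-associated macrophage markers tested, 8 rose, none fell and the median difference was 0.81, beside 5.21% of all genes higher and a median of 0.006. Besides these 3 they were Fabp5, Pla2g7, Lpl, Itgax and Atp6v0d2. Fabp5, a fatty acid carrier, stood at 9.76 to 10.94 in treated animals and at 7.46 to 8.41 in vehicle animals (2.46 ± 0.42, adjusted p = 0.000574). Lpl, lipoprotein lipase, which releases fatty acids from lipoproteins, stood at 11.48, 10.92, 11.62 and 11.56 in treated animals and at 9.45, 9.85, 9.54 and 9.47 in vehicle animals. Pla2g7, the platelet-activating factor acetylhydrolase, rose by 1.92 ± 0.27 (adjusted p = 6.45e-05). Trem2, the lipid receptor after which such macrophages are often named, did not pass. It was at 6.16 to 6.51 in treated animals and 6.11 to 6.38 in vehicle animals. These Trem2 values lay near or under the level that a gene had to exceed for testing, so they say little about a change. Apoe and Plin2 differed by -0.00 and 0.13 and did not pass either, but both lay at 13.77 or above in every animal, near the highest value of all arrays (14.88), where differences can be compressed. The count of 8 lay between 7 and 8 when each array was left out.

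**Figure D1:**
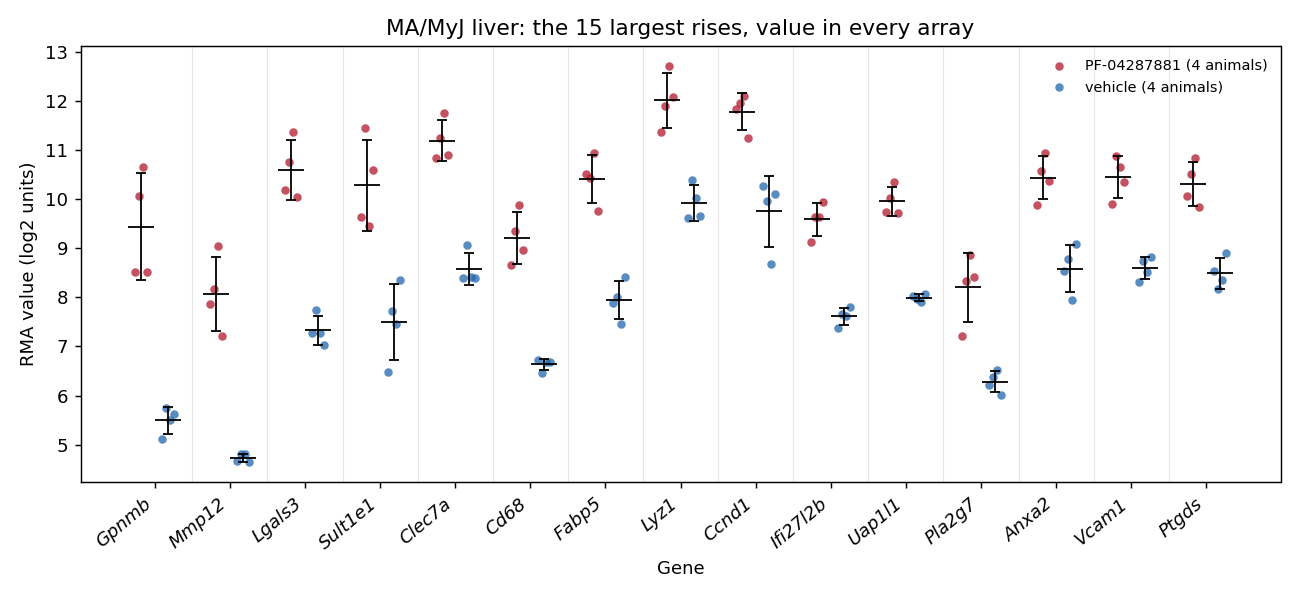
Log2 value in every MA/MyJ array for the 15 largest rises that passed the threshold without overlap of the groups. Red points are the 4 PF-04287881 animals and blue points the 4 vehicle animals, with the group mean and SD in black. Every treated point of a gene lies above every vehicle point of that gene, and the widest gaps are those of Gpnmb, Mmp12 and Lgals3.

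Genes listed as Kupffer cell markers rose as well: 10 of 18 passed, none fell, and the median difference was 1.01, beside 5.21% of all genes higher. The list also holds genes of macrophages in general, such as Cd68 and Csf1r. In whole liver, more cells of a type and more RNA per cell cannot be told apart. Cd68, a lysosomal membrane glycoprotein of macrophages, stood at 8.66, 9.34, 9.87 and 8.96 in treated animals, against 6.72, 6.46, 6.68 and 6.68 in vehicle animals (2.57 ± 0.38, adjusted p = 0.000114). Receptors held by resident cells moved together with it. Vsig4, a complement receptor, stood at 9.64, 9.96, 10.42 and 10.07 in treated animals and at 8.56, 8.60, 8.86 and 8.57 in vehicle animals. Clec4f, a lectin found on Kupffer cells of rodents, stood at 10.27, 10.61, 11.03 and 10.66 in treated animals and at 9.95, 9.37, 9.65 and 9.81 in vehicle animals. Timd4, a receptor for dead cells, rose by 1.19 ± 0.35 (adjusted p = 0.0364), and Cd5l, a protein secreted by tissue macrophages, by 1.39 ± 0.31 (adjusted p = 0.00663). The 3 chains of complement C1q rose by 1.43 (C1qb), 1.21 (C1qa) and 1.19 (C1qc), and Csf1r, the receptor that macrophages need to survive, by 1.12 ± 0.22. Spic, a transcription factor of iron-recycling macrophages, passed at 0.42 although its groups overlapped. Adgre1, a widely used macrophage surface marker, missed the threshold at 0.67 ± 0.21 (adjusted p = 0.0507) with no overlap, and Marco, a scavenger receptor, differed by 0.18. Cd163 (1.08) and Clec1b (0.59) did not pass, nor did Folr2 (0.24), Id3 (0.01), Nr1h3 (-0.08) and Slc40a1 (-0.15). The Kupffer count was 6 to 12 when each array was left out.

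Markers of monocytes and recruited macrophages split. Of 11 tested, 6 rose and none fell, with a median of 0.73, beside 5.21% of all genes higher. Itgam, S100a4 and Chil3, also listed, were too dim to be tested. Counts over tested genes can therefore lean towards genes that are bright under the drug. Clec7a, dectin-1, the receptor for fungal beta-glucan, stood at 10.84, 11.24, 11.75 and 10.90 in treated animals, against 8.40, 9.06, 8.42 and 8.40 in vehicle animals (2.62 ± 0.29, adjusted p = 4.67e-06). The lysozyme genes Lyz1 and Lyz2, which are near-identical copies whose probes can share signal, rose by 2.09 and 1.67. Fcgr3, an antibody receptor, rose by 1.35, Cybb, the oxidase subunit of phagocytes, by 0.92, and Ms4a7 by 0.73. Within MA/MyJ, Ms4a7 lay under 6.49 in every vehicle animal and exceeded it only in treated animals 3 and 4. Ccr2 and Cx3cr1, receptors by which blood monocytes are known, did not pass. Ccr2 was at 7.84 to 8.02 in treated animals and 7.92 to 8.08 in vehicle animals. Cx3cr1 differed by 0.08, but was at 5.92 to 6.15 in treated animals and 5.74 to 6.07 in vehicle animals. All these Cx3cr1 values lay under the level that a gene had to exceed for testing, so its difference says little. Over the 3 macrophage lists together, 24 of 43 genes rose and 0 fell. The mean of the Kupffer list relative to the vehicle mean was 0.49, 0.68, 1.23 and 1.02 in the treated animals and 0.00, -0.01, 0.14 and -0.12 in the vehicle animals. As for Clec7a, treated animal 3 was highest and treated animal 1 lowest of the treated animals.

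Other blood cells left little trace in these values. No gene passed among 7 B and plasma cell, 6 T and NK cell, 6 neutrophil and 5 erythroid markers tested, whose medians were -0.03, 0.03, 0.03 and -0.14. The largest neutrophil difference was that of Elane, 0.19 ± 0.09. Of 6 dendritic cell markers, Cd209a alone passed, lower at 6.21, 6.04, 6.26 and 6.20 in treated animals against 6.47, 6.51, 6.47 and 6.39 in vehicle animals. Only the 6.51 lay above 6.49, the level that a gene had to exceed for testing, so this difference says little. These lists rest on few genes, and in simulated data the model recovered 60 of 100 genes changed by 0.5, so smaller changes may have been missed.

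**Figure D2:**
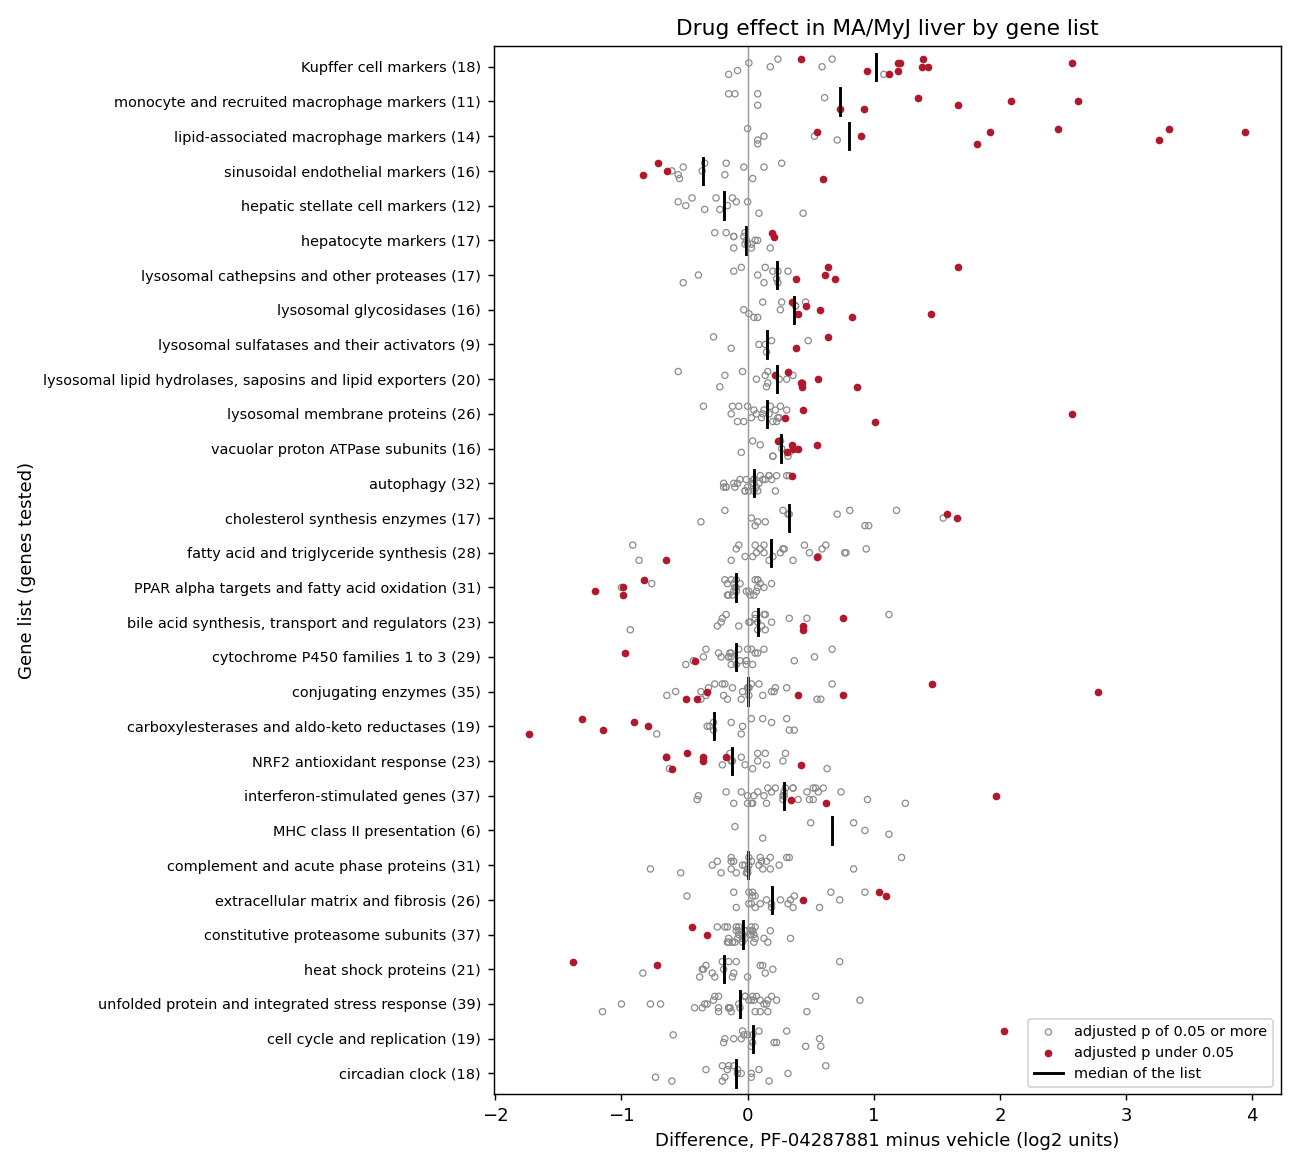
Difference between PF-04287881 and vehicle in MA/MyJ liver (log2 units, x axis) for every tested member of 30 gene lists (y axis, number of genes tested in brackets). Filled points passed the threshold, open points did not, and black bars are list medians. The 3 macrophage lists have medians of 1.01, 0.73 and 0.81, and the hepatocyte list has -0.01.

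Lysosomal genes rose by smaller steps. Over the lists of lysosomal hydrolases, membrane proteins and proton pump subunits, 30 of 104 genes rose, 0 fell and the median difference was 0.23. Over all genes tested, 5.21% rose, 2.09% fell and the median was 0.006. The macrophage markers rose in the same animals (24 of 43, summed as list means of 0.49 to 1.23 for Kupffer markers in treated animals and -0.12 to 0.14 in vehicle animals), and their part in the lysosomal rises was not tested. Among the proteases 5 of 17 rose, and 3 to 5 did when each array was left out. With the MA/MyJ arrays fitted alone, 8 of the 17 rose and 1 fell. Ctss, cathepsin S, a protease of antigen-presenting cells, stood at 10.15, 10.73, 11.35 and 10.73 in treated animals, against 9.03, 9.03, 9.17 and 9.06 in vehicle animals (1.67 ± 0.31, adjusted p = 0.00124). Ctsa, cathepsin A, which also protects beta-galactosidase and neuraminidase, stood at 12.30, 12.37, 12.44 and 12.45 in treated animals and at 11.63, 11.76, 11.85 and 11.77 in vehicle animals (0.64 ± 0.10, adjusted p = 0.000145). Lgmn, legumain, rose by 0.69, Dpp7, a dipeptidyl peptidase, by 0.61, and Ctsd, cathepsin D, by 0.38. The Lgmn call was lost in 6 of 8 fits without 1 array (adjusted p up to 0.156) and the Dpp7 call in 3. Ctsc and Ctse, further cathepsins, differed by -0.39 and -0.51 and did not pass.

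Enzymes that take sugars and sulfate off glycolipids and glycosaminoglycans followed. Of 16 glycosidases 6 rose, with a median of 0.36, beside 5.21% of all genes higher. The count was 2 to 6 when each array was left out and 4 with arrays centred. Hexa, the alpha subunit of beta-hexosaminidase, whose loss causes ganglioside storage, stood at 10.18, 10.55, 10.65 and 10.55 in treated animals, against 9.02, 9.10, 8.94 and 9.07 in vehicle animals (1.45 ± 0.15, adjusted p = 9.43e-07). Naglu, which removes N-acetylglucosamine from heparan sulfate, stood at 9.52, 9.23, 9.46 and 9.53 in treated animals and at 8.27, 8.75, 8.73 and 8.67 in vehicle animals. The others were Gusb (0.57), Man2b1 (0.46), Manba (0.40) and Aga (0.35). Of 9 sulfatases and their activators, Arsa, which desulfates sulfatide, rose by 0.64 ± 0.18 and Galns by 0.38 ± 0.11. The Arsa call was lost in 5 and the Galns call in 7 of 8 fits without 1 array (adjusted p up to 0.0768 and 0.115), which left 0 or 1 of the 9. Once arrays were centred, 1 of the 9 rose and 1 fell.

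Lipid-handling proteins of the lysosome, the class nearest to phospholipid storage, gave 7 rises among 20 tested, beside 5.21% of all genes higher. When each array was left out, 3 to 7 rose and 0 or 1 fell. With arrays centred, 4 rose and 2 fell. Pla2g15, the lysosomal phospholipase A2, passed at 0.43 ± 0.12 (adjusted p = 0.0241), with values of 8.43, 8.04, 8.29 and 8.40 in treated animals and 8.05, 7.67, 7.87 and 7.88 in vehicle animals that overlapped at one point, and the mean of its 2 probe sets did not pass (0.22, adjusted p = 0.241). Smpdl3b, a phosphodiesterase of the macrophage surface, stood at 8.83, 9.05, 8.80 and 9.47 in treated animals and at 8.20, 7.88, 8.42 and 8.19 in vehicle animals. Pld3 rose by 0.56, Npc2, which carries cholesterol inside the lysosome, by 0.43, Asah1, acid ceramidase, by 0.42, Plbd1 by 0.32 and Psap, the precursor of the saposins, by 0.22. Lipa, the acid lipase, and Smpd1, acid sphingomyelinase, differed by 0.16 and 0.07 and did not pass.

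The membrane and the pump moved less. Of 26 membrane proteins 4 rose, beside 5.21% of all genes higher, and 2 to 4 did when each array was left out. The 4 were Cd68, Slc11a1, a metal transporter of phagocytic vesicles (1.01 ± 0.22), Laptm5 (0.44) and Tmem192 (0.30). The probe sets of Laptm5 ran from 0.03 to 1.49. The Laptm5 and Tmem192 calls were lost in 4 and 5 of 8 fits without 1 array. Lamp1 and Lamp2, the main structural glycoproteins, differed by 0.17 and 0.11 without passing. Of 16 proton pump subunits 6 rose, by 0.24 to 0.55, led by Atp6v0d2, a subunit of macrophages and osteoclasts, whose second probe set rose by 2.48. With all 31 arrays in the fit, 0 of the 16 pump subunits passed, and 1 to 6 passed when each MA/MyJ array was left out. Rragd, a Rag GTPase that ties lysosomal nutrients to mTOR, stood at 7.37, 8.58, 8.78 and 7.41 in treated animals, against 6.51, 6.63, 6.22 and 6.86 in vehicle animals (1.48 ± 0.38, adjusted p = 0.0162). Lamtor1 (0.28), a part of the scaffold for the Rag GTPases, passed with it among 24 nutrient-sensing genes, a share near the 5.21% of all genes higher, and these calls were lost in 6 and 3 of 8 fits without 1 array (adjusted p up to 0.0847 for Lamtor1 and 0.0774 for Rragd). Tfeb itself, a master regulator of lysosomal genes, differed by -0.05. Autophagy genes gave 1 rise among 32, Atg7 by 0.35, with a median of 0.05.

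TFEB and its relatives bind a motif of the letters TCACGTG near the starts of lysosomal genes, so the promoters of the lysosomal, nutrient-sensing and autophagy genes were searched on both strands. RefSeq promoters of 300 bases, 250 before and 50 after a gene's start in GRCm38.p6, were at hand for 29 of the 33 that rose and 104 of the 127 that did not. The motif occurred in 10 of the 29 (34.5%) and in 21 of the 104 (20.2%), beside 6.69% of 10394 tested genes with a promoter and 4.29% of all 27025. The core CACGTG, which lies inside it, occurred in 37.9%, 25%, 11.3% and 8.09% of the same promoters. Among all genes that rose in MA/MyJ the longer motif occurred in 10.3%, and among those that fell in 1.36%. A match is a stretch of letters and not a measured binding site. The stretches around the match of the 4 genes with the largest rises are shown for what the shares count, 5′ to 3′ on the strand of the gene, with each match in capitals.
Naglu, chr11:101069980-101070066, plus strand, match 74 bases before the start: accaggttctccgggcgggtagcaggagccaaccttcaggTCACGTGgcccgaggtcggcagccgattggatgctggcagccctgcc
Lgmn, chr12:102439096-102439182, minus strand, match 50 bases before the start: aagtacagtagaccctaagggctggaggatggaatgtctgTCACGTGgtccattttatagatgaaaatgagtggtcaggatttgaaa
Ctsa, chr2:164833720-164833806, plus strand, first match 13 bases before the start: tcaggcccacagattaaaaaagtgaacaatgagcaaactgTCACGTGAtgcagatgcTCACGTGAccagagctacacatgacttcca
Arsa, chr15:89477395-89477481, minus strand, match 17 bases before the start: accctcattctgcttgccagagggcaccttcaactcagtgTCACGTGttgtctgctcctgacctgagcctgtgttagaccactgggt
In Ctsa the letters stand in 2 places, each readable on both strands, which counts as 4 matches. The other 6 genes with a match were Dpp7, Ctsd, Atg7, Plbd1, Lamtor1 and Atp6v0d1.

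Of 16 markers of the endothelial cells that line the sinusoids, 3 fell and 1 rose, beside 2.09% of all genes lower and 5.21% higher. The median was -0.35 and 12 of the 16 differences lay below zero. Dnase1l3, a secreted DNase, stood at 8.56, 8.14, 9.05 and 8.79 in treated animals and at 9.43, 9.41, 9.40 and 9.64 in vehicle animals (-0.83 ± 0.21, adjusted p = 0.0141). Tek, the angiopoietin receptor, fell by 0.71 and Flt4, a receptor for vascular endothelial growth factors, by 0.64, while Stab2, the hyaluronan scavenger receptor, rose by 0.60 ± 0.16. The Tek and Flt4 calls were lost in 6 and 7 of 8 fits without 1 array. The number that fell was 0 to 4 when each array was left out and 1 with animal number as a block. None of 12 stellate cell and 5 cholangiocyte markers passed. Of 17 hepatocyte markers, Cps1 and Ahsg passed at 0.21 and 0.19, and neither did once the arrays were centred. Alb, albumin, stood at 14.67 to 14.75 in treated animals and 14.74 to 14.77 in vehicle animals, and differed by -0.03 and Hnf4a by -0.11, with a list median of -0.01. Albumin lay close to the highest value of all arrays (14.88), as did other abundant secreted proteins of the list, so this median says little about small changes.

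Of 17 cholesterol synthesis enzymes 2 rose and none fell, with a median of 0.33, beside 5.21% of all genes higher. They were Nsdhl and Dhcr7, which act late on the way from lanosterol to cholesterol. Dhcr7 stood at 9.49, 9.77, 9.55 and 9.73 in treated animals, against 8.01, 8.07, 8.02 and 8.12 in vehicle animals (1.58 ± 0.28, adjusted p = 0.000768). Nsdhl stood at 9.72, 9.42, 9.35 and 9.88 in treated animals, against 7.71, 8.16, 8.05 and 7.82 in vehicle animals (1.66 ± 0.41, adjusted p = 0.0137). When the 8 MA/MyJ arrays were fitted alone, so that the spread of other strains did not enter, 8 of 17 passed, all higher, beside 6.11% of all genes higher and 2.15% lower in that fit. The additional 6, named after their values were seen, were Idi1, Cyp51, Fdps, Msmo1, Sqle and Tm7sf2. Idi1, which makes the isoprenoid building block, stood at 9.19, 9.53, 10.14 and 9.97 in treated animals, against 8.16, 8.15, 7.98 and 8.36 in vehicle animals (1.55, adjusted p = 0.00235 alone and 0.237 in the model of all groups). Cyp51, the lanosterol demethylase, differed by 1.18 and Fdps, farnesyl diphosphate synthase, by 0.96, both without overlap of the groups. Hmgcs1, at the entry of the pathway, differed by -0.18 and Fdft1, squalene synthase, by -0.37, and neither passed in either fit. In the other strains 1 enzyme rose in NZW/LacJ, 12 rose in WSB/EiJ and 1 rose in SM/J, with medians of 0.49, 1.46 and 0.35, and none of the 17 passed the test of MA/MyJ against the mean of the other strains.

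**Figure D3:**
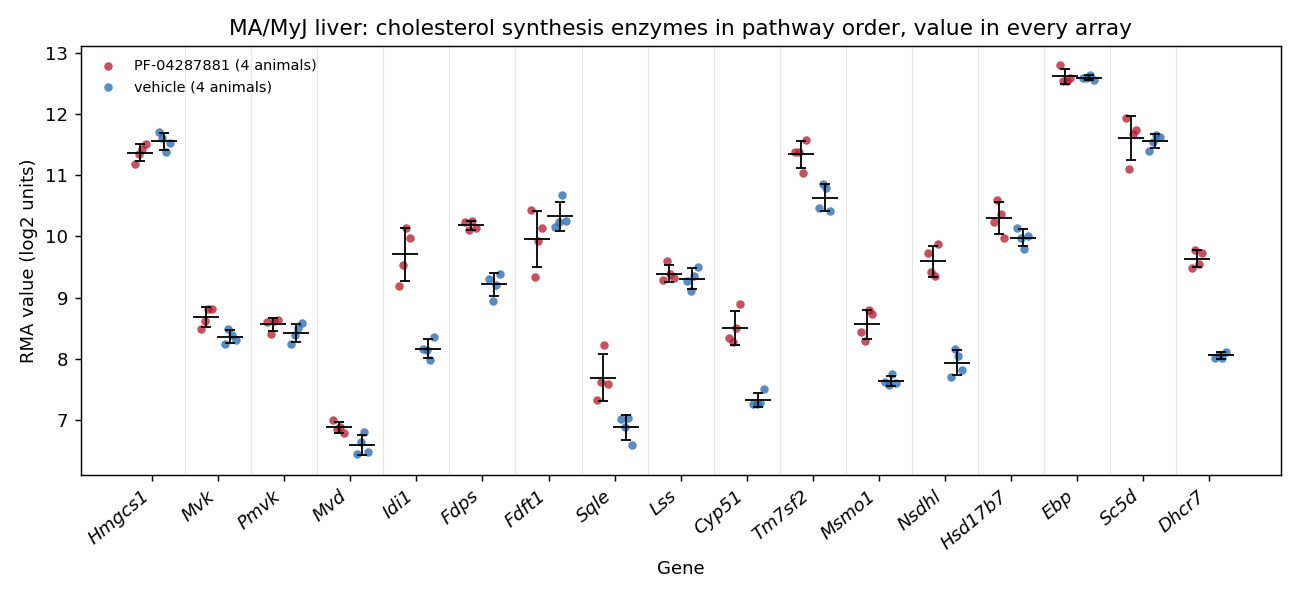
Log2 value in every MA/MyJ array for 17 cholesterol synthesis enzymes, ordered from the entry of the pathway on the left to its end on the right. Red points are PF-04287881 animals, blue points vehicle animals, and black marks are group means with SD. The groups of Idi1, Cyp51, Nsdhl and Dhcr7 are separated, and those of Hmgcs1, Fdft1 and Lss overlap.

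The rest of lipid metabolism changed at few genes, where 5.21% of all genes tested rose and 2.09% fell. Fads1, the delta-5 desaturase, rose by 0.55 ± 0.17 and Me1, malic enzyme, fell by 0.65 ± 0.12 among 28 genes of fatty acid and triglyceride synthesis, and the Fads1 call was lost in all 8 fits without 1 array (adjusted p up to 0.106). Of 31 PPAR alpha targets and oxidation genes 4 fell and none rose, with a median of -0.09, beside 2.09% of all genes lower. They were the acyl-CoA thioesterases Acot3 (-1.21), Acot4 (-0.99) and Acot2 (-0.99) and the pantetheinase Vnn1 (-0.82), and none is an enzyme of beta-oxidation itself. The thioesterases belong to one gene cluster whose probes can share signal. The Acot3 and Acot2 calls were each lost in 6 of 8 fits without 1 array (adjusted p up to 0.114 and 0.146). Acot4, of peroxisomes, stood at 10.02, 9.88, 9.75 and 9.46 in treated animals and at 10.86, 11.02, 10.09 and 11.12 in vehicle animals. In phospholipid synthesis, Chpt1, which makes phosphatidylcholine in its last step, stood at 11.69, 11.50, 11.40 and 11.56 in treated animals, against 12.24, 12.47, 12.50 and 12.25 in vehicle animals (-0.83 ± 0.13, adjusted p = 0.000277). Cept1, with an overlapping activity, fell by 0.26, and Pcyt1a, the enzyme that sets the rate of the pathway, passed at 0.30, but not with the mean of its probe sets (0.10). Scarb1, the receptor for high-density lipoprotein, rose by 0.67 with overlapping groups, and vehicle animal 3 alone stood at 11.63 among vehicle animals.

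Enzymes of drug and ester metabolism made up 5 of the 15 largest falls. Of 19 carboxylesterases and aldo-keto reductases 5 fell and 0 rose, with a median of -0.27, beside 2.09% of all genes lower. Ces1f stood at 11.38, 10.02, 10.74 and 10.76 in treated animals, against 12.39, 12.65, 12.30 and 12.47 in vehicle animals (-1.73 ± 0.28, adjusted p = 0.000289). Akr1c19 stood at 9.57, 9.05, 8.80 and 8.67 in treated animals, against 9.86, 10.59, 10.81 and 10.07 in vehicle animals. Ces1e fell by 1.15, Ces2a by 0.90 and Ces1d by 0.79. The esterases lie in families of similar sequence, so signal may be shared between members. In fits without 1 array, 5 or 6 of the list fell.

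Cytochrome P450 genes of families 1 to 3 gave 0 rises and 2 falls among 29, beside 5.21% of all genes higher and 2.09% lower. Cyp2c29 stood at 12.99, 12.45, 12.26 and 12.82 in treated animals, against 13.57, 13.68, 13.74 and 13.40 in vehicle animals (-0.97 ± 0.14, adjusted p = 0.000138), and Cyp2c38 fell by 0.42. Conjugating enzymes went both ways, with 4 higher and 3 lower of 35, beside the same shares of all genes. Sult1e1, which sulfates estrogens, stood at 9.63, 11.44, 9.44 and 10.59 in treated animals, against 6.47, 7.71, 7.46 and 8.35 in vehicle animals (2.78 ± 0.42, adjusted p = 0.000139). Within the glutathione transferases, Gstm2 rose by 1.46 ± 0.20 and Gstm5 by 0.76, while Gstm1 fell by 0.49 ± 0.12. NRF2 is a transcription factor of the response to oxidative stress. Genes that it controls gave 6 falls and 1 rise among 23, beside 2.09% of all genes lower and 5.21% higher. They included Gclc and Gclm, the subunits of the enzyme that makes glutathione's precursor (-0.48 and -0.35), Gsr, glutathione reductase (-0.35), and Ephx1, an epoxide hydrolase (-0.60). This count was 2 to 6 when each array was left out and 2 with all 31 arrays. Bile acid genes gave 3 rises among 23, beside 5.21% of all genes higher, and 0 to 2 in fits without 1 array. The 3 were the uptake carrier Slco1a4 (0.76), the export pump Abcc2 (0.44) and Slc51b (0.44). The Slc51b call was lost in all 8 of these fits.

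**Figure D4:**
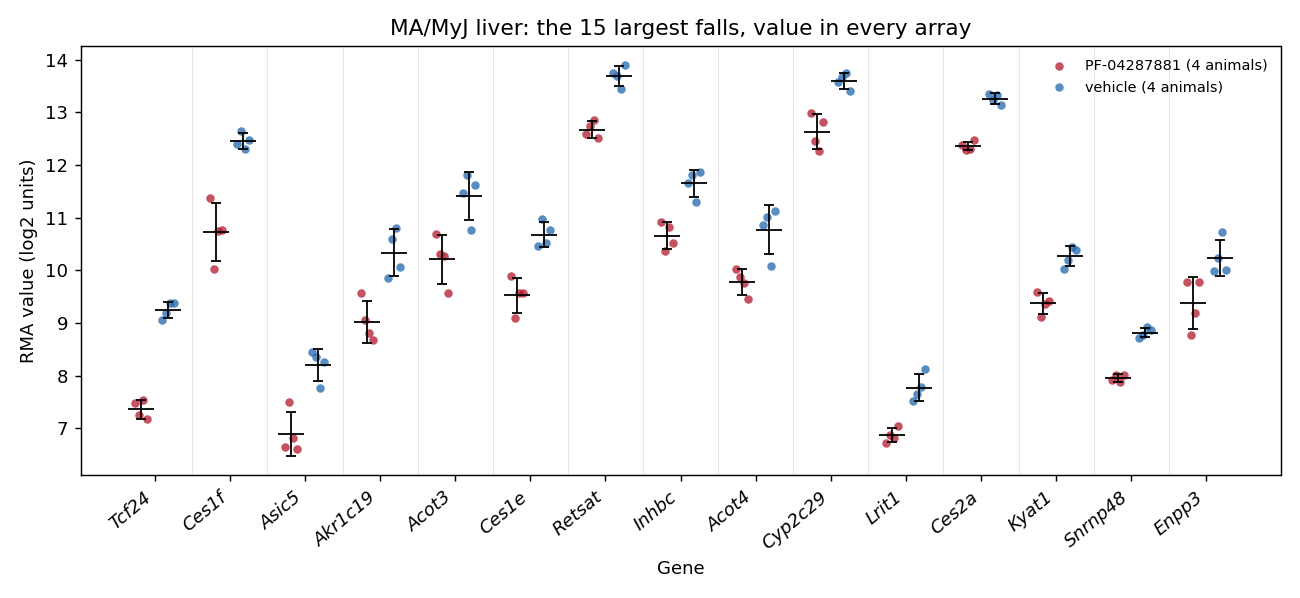
Log2 value in every MA/MyJ array for the 15 largest falls that passed the threshold without overlap of the groups. Red points are the 4 PF-04287881 animals, blue points the 4 vehicle animals, and black marks are group means with SD. Tcf24 and Ces1f show the widest gaps, and the esterases Ces1e and Ces2a lie among the others.

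Among the other large falls, Tcf24, a basic helix-loop-helix factor, stood at 7.48, 7.25, 7.53 and 7.17 in treated animals, against 9.05, 9.19, 9.37 and 9.37 in vehicle animals (-1.89 ± 0.19, adjusted p = 9.43e-07). Asic5, an ion channel sensitive to bile acids in rodents, fell by 1.32, Inhbc, an activin subunit made by hepatocytes, by 1.00, and Retsat, retinol saturase, by 1.02. The calls of Inhbc and Retsat were lost with all 31 arrays in the fit (adjusted p = 0.101 and 0.115). Lrit1 and Kyat1, a kynurenine aminotransferase, fell by 0.90 each. Snrnp48, a part of the minor spliceosome, fell by 0.86 on its brightest probe set, but its 4 probe sets ran from -0.86 to 0.18. Enpp3, an ectonucleotide phosphodiesterase, fell by 0.86, and its call was lost in 3 fits without 1 array (adjusted p up to 0.0832).

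Inflammatory genes passed less often than the macrophage markers. Ifi27l2b, an interferon-inducible gene, stood at 9.12, 9.64, 9.64 and 9.93 in treated animals, against 7.38, 7.65, 7.61 and 7.81 in vehicle animals (1.97 ± 0.20, adjusted p = 9.43e-07). With Ifih1 (0.62) and Ifi35 (0.34) it made up the 3 rises among 37 interferon-stimulated genes, beside 5.21% of all genes higher. Their median was 0.29 and 32 of the 37 differences lay above zero. In 12 of them all treated values lay above all vehicle values, beside 10.7% of all genes. With the MA/MyJ arrays fitted alone 9 passed, all higher, beside 6.11% of all genes higher in that fit. Vcam1, an adhesion molecule, rose by 1.85 ± 0.33 on its brightest probe set and by 1.17 as the mean of 3, and Ccl6, a chemokine of macrophages, by 1.31 ± 0.34, the 2 rises among 27 cytokine, chemokine and adhesion genes. None of 31 complement and acute phase genes passed, a list without the C1q chains, which were counted among the Kupffer markers. Lcn2, lipocalin-2, was the furthest of these at 1.22 ± 0.41 with overlapping groups (adjusted p = 0.0682). None of 6 MHC class II genes passed, although their median was 0.67: H2-Ab1 stood at 8.14, 8.06, 9.17 and 9.82 in treated animals and at 7.26, 8.01, 7.86 and 7.59 in vehicle animals (adjusted p = 0.0671).

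Annexins and S100 proteins, which bind calcium and membranes, gave 5 rises among 12 and no fall, beside 5.21% of all genes higher. Anxa5, which binds exposed phosphatidylserine, stood at 11.14, 11.56, 11.82 and 11.63 in treated animals, against 9.78, 9.59, 9.50 and 10.05 in vehicle animals (1.81 ± 0.20, adjusted p = 4.72e-06). Anxa2 rose by 1.85 on its brightest probe set and by 0.74 as the mean of 3. S100a6 rose by 1.07, at 6.14 to 6.46 in treated animals and 5.05 to 5.40 in vehicle animals. All these S100a6 values lay under 6.49, the level that a gene had to exceed for testing, so its difference rests on dim signals. The S100a6 and Anxa1 (0.50) calls were lost in 4 and 5 of 8 fits without 1 array. In those fits 2 to 5 genes of the list rose. Of 26 matrix genes 3 rose: Col4a1 of basement membranes (1.10), Vim, vimentin (1.04), and Mmp14 (0.44). These calls were lost in 5, 6 and 2 of 8 fits without 1 array (adjusted p up to 0.109, 0.121 and 0.073), which left 0 to 3, and with all 31 arrays 1 remained, that of Mmp14. Col1a2 and Col3a1, the fibrillar collagens of scars, differed by 0.57 and 0.93 without overlap and passed only when the MA/MyJ arrays were fitted alone, where 8 of 26 did.

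Signs of general cell stress were few. None of 39 genes listed for endoplasmic reticulum and integrated stress passed. Of 21 heat shock genes Hspa1b fell by 1.38 with overlapping groups and Dnajb1 by 0.72, beside 2.09% of all genes lower and 5.21% higher. The Hspa1b call was lost in 5 of 8 fits without 1 array (adjusted p up to 0.134). It was also lost with all 31 arrays and with the MA/MyJ arrays alone. Ccnd1, cyclin D1, which drives entry into the cell cycle, stood at 11.82, 11.95, 12.10 and 11.23 in treated animals, against 10.26, 9.96, 8.67 and 10.10 in vehicle animals (2.03 ± 0.42, adjusted p = 0.00326). It was the 1 gene of 19 in its list that passed, and no other cell cycle or replication gene there did. Bid, Bak1 and Aen, of the p53 and apoptosis list of 19, rose by 0.72, 0.49 and 0.36. None of these 3 passed with all 31 arrays, and 0 to 3 genes of the list did in fits without 1 array, where the calls were lost 2, 5 and 6 times of 8. Uap1l1 and Ptgds, a prostaglandin D synthase, rank among the 15 largest rises at 1.96 and 1.83, and the mean of the 2 probe sets of Uap1l1 gave 1.27.

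To see how far MA/MyJ stood apart, its drug effect was set beside that of the other strains. The drug changed 3436 genes in NZW/LacJ (26.7%), 18.3% higher and 8.35% lower. In SM/J it changed 600 (4.66%), 2.66% higher and 1.99% lower, and in WSB/EiJ 4179 (32.4%), 13.8% higher and 18.6% lower. With NZW/LacJ, MA/MyJ shared 552 called genes, 58.7% of its own and 16.1% of those of NZW/LacJ, 529 of them in the same direction. With SM/J it shared 145, 15.4% of its own and 24.2% of those of SM/J, and 141 ran the same way. With WSB/EiJ it shared 390, 41.4% of its own and 9.33% of those of WSB/EiJ, and 248 ran the same way. A set of 103 genes passed in 1 direction in all of MA/MyJ, SM/J and NZW/LacJ.

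The macrophage markers were compared between strains by class. Kupffer markers gave 10 rises of 18 in MA/MyJ, beside 7 in NZW/LacJ, 10 in WSB/EiJ (where 2 fell) and 1 in SM/J, with medians of 1.01, 0.58, 1.09 and 0.25. None of the 18 passed the test of the MA/MyJ effect against the mean effect of the other 3 strains, a test that 593 genes passed (4.6%), 3.17% higher and 1.43% lower in MA/MyJ. Lipid-associated markers gave 8 rises of 14 in MA/MyJ, beside 6 in NZW/LacJ, 4 in WSB/EiJ (where 1 fell) and 0 in SM/J, and 5 of the 14 passed that test, all with the larger effect in MA/MyJ. Gpnmb rose by 3.94 in MA/MyJ, and its difference was 2.76 in NZW/LacJ, 1.15 in WSB/EiJ and 0.57 in SM/J. Against the mean of these it lay 2.45 ± 0.56 higher (adjusted p = 0.0132), and against each strain it lay 1.18 higher than in NZW/LacJ (adjusted p = 0.352), 3.37 higher than in SM/J (adjusted p = 0.0177) and 2.80 higher than in WSB/EiJ (adjusted p = 0.00814). Mmp12 followed the same order, at 3.34 in MA/MyJ, 1.68 in NZW/LacJ, 0.91 in WSB/EiJ and 0.30 in SM/J. Against NZW/LacJ, the other strain coded for vacuolation, neither gene passed (adjusted p = 0.352 and 0.127).

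Of the 43 macrophage markers, Clec7a was the one whose effect in MA/MyJ passed against each other strain. It rose by 2.62 in MA/MyJ and its difference was 1.22 in NZW/LacJ, 0.28 in WSB/EiJ and 0.58 in SM/J (adjusted p of the differences from MA/MyJ 0.0461, 0.000637 and 0.0204). In all, 19 genes passed against each strain separately, 10 with the higher and 9 with the lower effect in MA/MyJ, beside 717 (5.56%) against NZW/LacJ, 90 (0.698%) against SM/J and 3118 (24.2%) against WSB/EiJ. The higher effect was in MA/MyJ for 1.57% of all genes against NZW/LacJ, 0.427% against SM/J and 15.8% against WSB/EiJ, and the lower effect for 4%, 0.272% and 8.44%. The genes named from these 19 were picked out after their values were seen. Cyp2j6, an epoxygenase of fatty acids, stood at 10.07, 10.16, 10.15 and 10.24 in treated animals, against 8.50, 8.93, 8.80 and 8.92 in vehicle animals of MA/MyJ. Its rise of 1.37 ± 0.10 compares with 0.18 in NZW/LacJ, 0.53 in WSB/EiJ and 0.33 in SM/J. Tcf24 fell by 1.89 in MA/MyJ, with -0.51 in NZW/LacJ, -0.34 in WSB/EiJ and -0.41 in SM/J. Slc17a2, a member of the sodium-phosphate cotransporter family, differed by -0.78 in MA/MyJ and by 0.08, 0.18 and 0.32 in NZW/LacJ, SM/J and WSB/EiJ.

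Other genes did not pass in MA/MyJ and changed in each of the other strains. Clock, the core circadian activator, differed by 0.03 in MA/MyJ and fell by 0.72 in NZW/LacJ, 0.75 in WSB/EiJ and 0.55 in SM/J. Ubxn1, an adaptor of the p97 segregase, differed by 0.01 in MA/MyJ and fell by 0.55 in NZW/LacJ, 0.46 in WSB/EiJ and 0.59 in SM/J. Nampt, which sets the rate of NAD salvage, differed by -0.21 in MA/MyJ and rose by 0.48, 1.04 and 0.56 in these strains. Abca8a, a lipid transporter, differed by -0.36 in MA/MyJ and rose by 0.75, 0.81 and 1.04. Orm2, an acute phase glycoprotein, differed by -0.21 in MA/MyJ and rose by 1.17, 1.62 and 1.56, a difference from their mean of -1.66 ± 0.35 (adjusted p = 0.00705). Of 37 constitutive proteasome subunits, 2 fell in MA/MyJ, beside 11 in NZW/LacJ, 33 in WSB/EiJ and 19 in SM/J, with medians of -0.04, -0.11, -0.49 and -0.28. Against the mean of the others 13 of 37 passed, beside 4.6% of all genes. That mean includes WSB/EiJ with its 2 treated arrays.

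**Figure D5:**
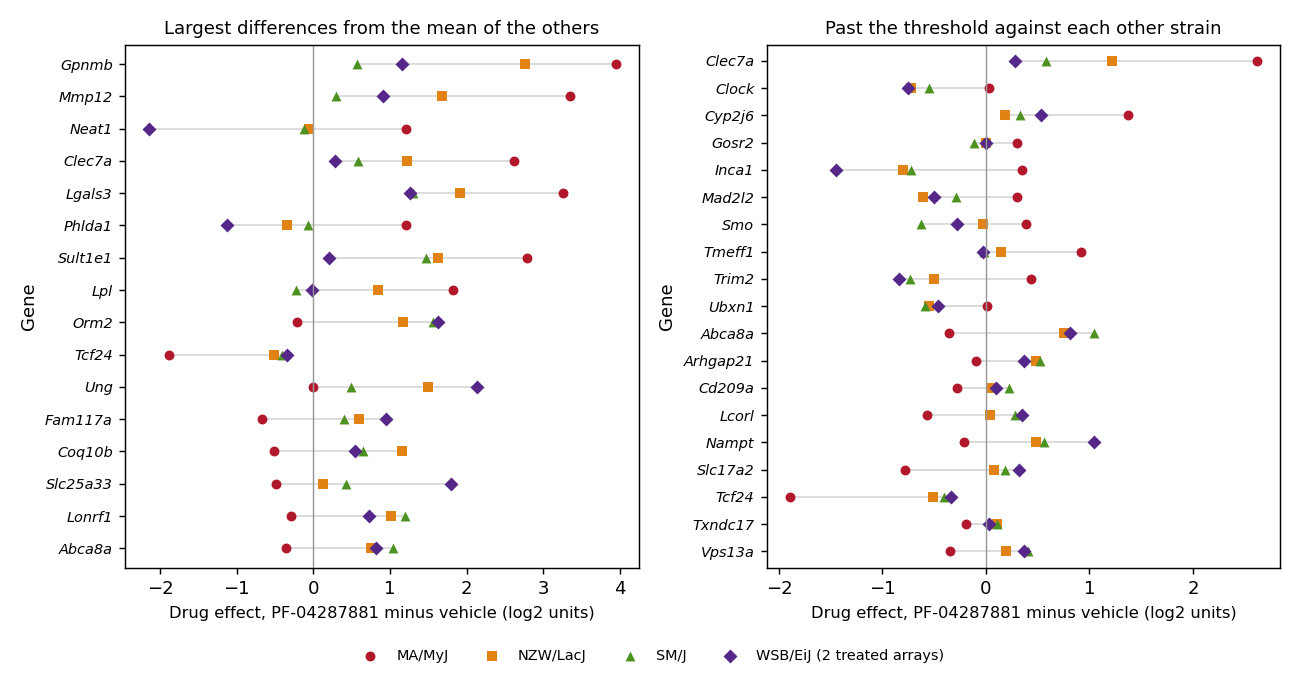
Drug effect (PF-04287881 minus vehicle, log2 units, x axis) in MA/MyJ and the other 3 strains for the 8 genes in each direction furthest from the mean of the others (left) and for the 19 genes that passed against each strain separately (right). Each symbol is 1 strain and WSB/EiJ rests on 2 treated arrays. MA/MyJ lies at one end of every line, at 3.94 for Gpnmb and -1.89 for Tcf24.

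The comparison with the mean of the others leans on WSB/EiJ. With WSB/EiJ taken out of that mean, an alternative chosen after seeing the data, 71 genes passed with the higher and 100 with the lower effect in MA/MyJ, in place of 409 and 184. Clec7a (1.72, adjusted p = 0.0137), Mmp12 (2.35, adjusted p = 0.0257), Gpnmb (2.28, adjusted p = 0.0483), Orm2 and Tcf24 were among those that still passed. Of the 16 genes furthest from the other strains, 7 did not. These were Lgals3 (1.65, adjusted p = 0.0945), Lpl (1.51, adjusted p = 0.0573), Sult1e1 (1.23, adjusted p = 0.276) and Neat1 (1.30, adjusted p = 0.224), with Phlda1 (1.42, adjusted p = 0.14), Ung (-1.01, adjusted p = 0.119) and Slc25a33 (-0.76, adjusted p = 0.165). Centring the arrays gave 310 higher and 259 lower, or 54.5% higher in place of 69.0%.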

How the data were processed

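Total RNA from the left liver lobe of 31 mice was amplified in a single round, labelled with biotin and hybridised to Affymetrix arrays, per the labels' protocols. The deposited log2 values of 44721 probe sets were made by the authors with RMA in Affymetrix Power Tools, per the submitters' processing notes; versions are not given in the sources used here. RMA adjusts all arrays to one distribution, so a shift shared by most genes is not visible. Of the probe sets, 34728 carry 1 gene symbol, 872 several and 9121 none, and 34525 were named through RefSeq's gene table (GRCm38.p6). Each of 18147 genes was read from its brightest probe set over all arrays. The 12887 genes above 6.49 in at least 3 arrays were tested and 5260 were set aside. A model with 1 mean per strain and treatment was fitted to 30 arrays with limma 3.58.1 in R 4.3.3 (22 residual degrees of freedom), with two-sided moderated tests and Benjamini-Hochberg adjustment over all genes. The number of arrays limits the precision, and the labels give each array its own animal.

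Named by rule were the 15 largest rises and falls that passed without overlap, the 8 genes in each direction furthest from the other strains' mean effect (where MA/MyJ lay beyond all 3), and for each list its 4 largest changes that passed, or the 2 largest differences where none did. Predicted and clone names were counted and not named. Further list members were named after their values were seen. The members and lists were chosen with earlier results of these data known. No pair of arrays was identical (highest correlation 0.996). In data simulated for 12887 genes, the MA/MyJ test recovered 60 of 100 genes changed by 0.5 and 95 of 100 changed by 1, with 7 false calls, and the test against the other strains recovered 49 and 91, with 7. Alternatives covered the arrays kept, the filter, the probe set, centring, the variance model, an animal-number block and leaving out each MA/MyJ array.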

Additional observations from a re-analysis of the deposited data

Results flagged for a closer look

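Among 310 groups of 4 MA/MyJ animals (155 genes named or listed, treated and vehicle groups each), 16 held 1 animal whose gap to the nearest other, as a share of the group's range, exceeded Dixon's 95% critical value. Chance flags about 1 in 20 such groups, or about 15.5 here. Vehicle animal 2 stood apart for Clec7a (9.06, against 8.40 to 8.42 in the other vehicle animals), Cd68 (6.46, against 6.68 to 6.72) and Phlda1 (10.95, against 10.23 to 10.33). Vehicle animal 3 stood apart for Vsig4 (8.86, against 8.56 to 8.60), Epcam (6.46, against 6.65 to 6.66), Cps1 (13.98, against 13.82 to 13.84) and Scarb1 (11.63, against a lowest value of 10.89). Vehicle animal 4 stood apart for Dnase1l3 (9.64, against 9.40 to 9.43), Pld3 (9.47, against 9.25 to 9.28) and Psmd7 (10.52, against 10.29 to 10.31). Vehicle animal 1 stood apart for Naglu (8.27, against 8.67 to 8.75), Tap2 (8.20, against 8.36 to 8.39) and Aen (9.46, against 9.12 to 9.15). Among treated animals, animal 4 stood apart for Slc25a33 (10.37, against 10.88 to 10.94) and Plin4 (10.50, against 10.36 to 10.38), and animal 2 for Gstm5 (7.67, against 8.11 to 8.15).

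The MA/MyJ effect differed from the mean effect of the other 3 strains, by a test of that difference, for the 16 genes named by that rule. It was higher for Gpnmb (2.45), Mmp12 (2.38), Neat1 (1.99), Clec7a (1.92), Lgals3 (1.77), Phlda1 (1.73), Sult1e1 (1.68) and Lpl (1.62). It was lower for Orm2 (-1.66), Tcf24 (-1.47), Ung (-1.39), Fam117a (-1.31), Coq10b (-1.30), Slc25a33 (-1.27), Lonrf1 (-1.27) and Abca8a (-1.22). Not all of these are firm: without WSB/EiJ, Neat1, Lgals3, Phlda1, Sult1e1, Lpl, Ung and Slc25a33 no longer passed. In the 8 fits without 1 MA/MyJ array the calls were lost 5 times for Lgals3 and Sult1e1, 3 times for Neat1, Phlda1 and Coq10b and 2 times for Lonrf1. The mean of all probe sets gave 1.43 for Gpnmb and 0.95 for Neat1.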

How the results depend on the processing

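Of the settings tried for the MA/MyJ effect (672 genes higher and 269 lower), 2 moved a count by over 1.5 times besides leaving out single arrays. With all 31 arrays, the WSB/EiJ array that matched NZW/LacJ included, 408 were higher and 126 lower, and with arrays centred on their medians 467 were higher and 575 lower. Leaving out each MA/MyJ array gave 352 to 652 higher and 139 to 242 lower. For the effect against the mean of the other strains (409 higher, 184 lower), all 31 arrays gave 63 and 34, and leaving out each MA/MyJ array gave 159 to 504 and 81 to 192. Taking WSB/EiJ out of that mean, chosen after seeing the data, gave 71 and 100, of which 59 and 57 were among those reported. Animal number as a replicate block gave 798 higher and 320 lower for the MA/MyJ effect, and 465 and 308 against the other strains. Same-numbered treated and vehicle animals of MA/MyJ correlated at -0.11, -0.0975, -0.216 and 0.128 in their deviations, so the numbers do not pair them. Atp6v0a1 (0.36) and Cox5b (0.16) reversed to -0.20 and -0.03 on the probe set of highest variance. Of 145 genes named for the MA/MyJ effect, 40 lost their call with all 31 arrays, 21 with centring, 17 with the MA/MyJ arrays alone and 19 to 48 without 1 MA/MyJ array (48 without treated animal 3). Why these settings moved the counts was not tested. The number of arrays limits what can be seen of small changes.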

Other observations

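Central metabolism, not described so far, changed at few genes. Of 26 genes of glycolysis, gluconeogenesis and glycogen 3 rose: Gyg, the primer of glycogen (0.83), Slc2a2, the hepatocyte glucose transporter (0.42), and Ugp2, which makes UDP-glucose (0.39). The Ugp2 call, made on its brightest probe set, was lost in all 8 fits without 1 array (adjusted p up to 0.116). In a fit of every probe set, the others of Ugp2 rose by 0.48 to 0.85 and passed. Of 35 genes of the urea cycle and amino acid catabolism, Cps1 and Bhmt, which methylates homocysteine, passed at 0.21 and 0.29, and neither did once arrays were centred. Of 74 mitochondrial ribosome genes, 5 rose and 2 fell with a median of 0.03. These shares lie near the 5.21% of all genes higher and 2.09% lower. In NZW/LacJ 17 of the 74 rose, beside 18.3% of all genes higher there. In WSB/EiJ 38 fell, beside 18.6% of all genes lower there. Of 67 respiratory chain subunits, Cox6b1 and Cox5b passed at 0.21 and 0.16, and neither did after centring. Of 22 metal-handling genes, the zinc importer Slc39a4 rose by 0.51, the iron transporter Slc11a2 fell by 0.71 and Tfr2, transferrin receptor 2, fell by 0.22. These calls were lost in 6, 7 and 6 of 8 fits without 1 array (adjusted p up to 0.0993, 0.145 and 0.161).

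Antigen processing gave 3 rises among 14 MHC class I and immunoproteasome genes, beside 5.21% of all genes higher: Psmb8 (0.59), Tapbp (0.48) and Tap2 (0.34). They were lost in 6, 2 and 8 of 8 fits without 1 array (adjusted p up to 0.18, 0.0832 and 0.115), and with centring or all 31 arrays 1 gene of the list passed. In the clock list of 18, none passed in MA/MyJ, yet 6 differed from the mean of the other strains, beside 4.6% of all genes. Arntl (1.04), Npas2 (0.84) and Clock (0.70) had the higher effect in MA/MyJ, and Cry2 (-0.82), Tef (-0.93) and Nfil3 (-1.11) the lower. Of the 18, 6 rose and 4 fell in NZW/LacJ, and 1 rose and 3 fell in SM/J. In WSB/EiJ, which has 2 treated arrays, 9 rose and 2 fell.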
